A study of Rattus norvegicus with 40 samples.

Results

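The genes described here are the mitochondrial protein import and assembly factors, chosen by name: all genes whose symbol in the array's annotation begins with Timm, Tomm or Chchd, or with Coa and a digit. The rule found 35 of the 13438 genes tested, made up of 13 Timm, 9 Tomm, 8 Chchd and 5 Coa genes. Where a gene had several probe sets, the brightest on average over the 40 arrays was used, and 14 of the 35 had more than 1 probe set. A further 4 probe sets stand for several genes of these names at once, so Timm17a, Timm23 and Chchd4 are not analysed here.

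Mitochondria make few of their own proteins, and nearly all the rest are built in the cytosol and carried in. The TOM complex is the entry gate of the outer membrane, and Tomm20, Tomm22 and Tomm70 are its receptors. Small Tim proteins escort hydrophobic proteins through the intermembrane space. The TIM23 and TIM22 translocases of the inner membrane receive proteins with a cleavable presequence and carrier proteins. Many CHCHD proteins carry paired cysteines that are oxidised on arrival in the intermembrane space, and some of them shape the cristae as subunits of the MICOS complex. The Coa genes encode factors that assemble cytochrome c oxidase, the last enzyme of the respiratory chain.

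The arrays measured liver RNA of adult male rats of the Sprague Dawley SD:CD stock, 10 rats per group and 1 array per rat. The groups received vehicle, 0.1, 1 or 10 mg/kg of GW7647 daily over 4 days by gavage, and the livers were collected 24 h after dosing ended. GW7647 is a synthetic agonist of PPAR-alpha, the fatty acid sensor that controls fatty acid breakdown genes in liver. In whole-liver RNA, fewer cells of a type and less RNA per cell cannot be told apart.

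The values are log2 expression levels as deposited, and their scale moved with dose. Against vehicle, the median log2 change over all genes was -0.03, 0.16 and 0.26 from the lowest to the highest dose, and quantile normalization of all 40 arrays brought the last of these to -0.02. At 1 and 10 mg/kg and between doses, rose and fell are therefore used of a gene only if its adjusted p was under 0.05 in the same direction on both scales, deposited and quantile normalized. At 0.1 mg/kg the deposited scale alone was used. The p-values are from limma with Benjamini-Hochberg adjustment over all genes tested. Folds, log2 changes, array readings and overlaps between groups are on the deposited scale unless stated, so they include its shift with dose. The 3 dose comparisons share the vehicle arrays. For the size of the response, 6 known PPAR-alpha targets were read: all 6 rose at 10 mg/kg, and 4 of 6 at 0.1 mg/kg. The 4 that read above the array medians with vehicle rose between 8.77-fold, for the peroxisomal enzyme Ehhadh, and 17.1-fold, for the thioesterase Acot2, at 10 mg/kg. Acot1, another thioesterase, read 11.56 at 10 mg/kg and 1.65 with vehicle, and like Cpt1b it was below the array medians with vehicle, so no fold is given for either. Poly-A control RNAs, added before labelling, also read higher with dose, at 5.57, 5.84, 6.22 and 6.56 on average from vehicle to 10 mg/kg. So did the difference between the 3′ and 5′ actin probe sets, a measure of RNA integrity and labelling, at 2.78, 2.85, 3.11 and 3.22 (log2). This difference was largest on arrays 7 and 10 at 1 mg/kg (3.95 and 4.42) and array 4 at 10 mg/kg (3.97).

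At 10 mg/kg, genes of the outer membrane gate, the small Tim escorts, the inner membrane translocases, the CHCHD proteins and the Coa factors rose. Of the 35 factors, 20 rose and 1 fell, where 20.4% of all genes rose and 7.69% fell. By role, 5 of 8 TOM genes, 5 of 7 small Tim genes, 3 of 5 genes of the inner membrane translocases, 4 of 8 CHCHD genes and 3 of 5 Coa genes rose, and Chchd7 fell. The rises ranged from 1.41-fold for Tomm7 to 3.44-fold for Chchd6. Quantile normalized, the same 20 ranged from 1.16-fold for Timm17b to 2.76-fold for Chchd6, with 2.53-fold for Timm10b and 2.02-fold for Tomm5. The median log2 change of the 35 was 0.54, against 0.26 for all genes, and after quantile normalization 0.23, against -0.02. Most of the 35 are bright: 30 have a group mean of log2 5 or more, as do 5810 of the 13438 genes tested. Among such genes the medians were 0.62 against 0.30, and 0.31 against 0.00011 after quantile normalization. The 20.4% includes dim genes, and the share among bright genes alone is not given. In 7 of the 35, all 10 arrays at 10 mg/kg lay above all 10 vehicle arrays on both scales, which held for 3.63% of all genes: Chchd6, Chchd10, Chchd2l3, Timm10b, Timm9, Tomm40 and Tomm5.

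The count depends on the scale. With the deposited scale alone, 31 rose and 1 fell at 10 mg/kg, where 56.5% of all genes rose and 7.69% fell. After quantile normalization alone, 20 rose and 3 fell, where 20.4% rose and 24.4% fell. The quantile normalized scale therefore set the number of rises, and the deposited scale that of falls.

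**Figure D1:**
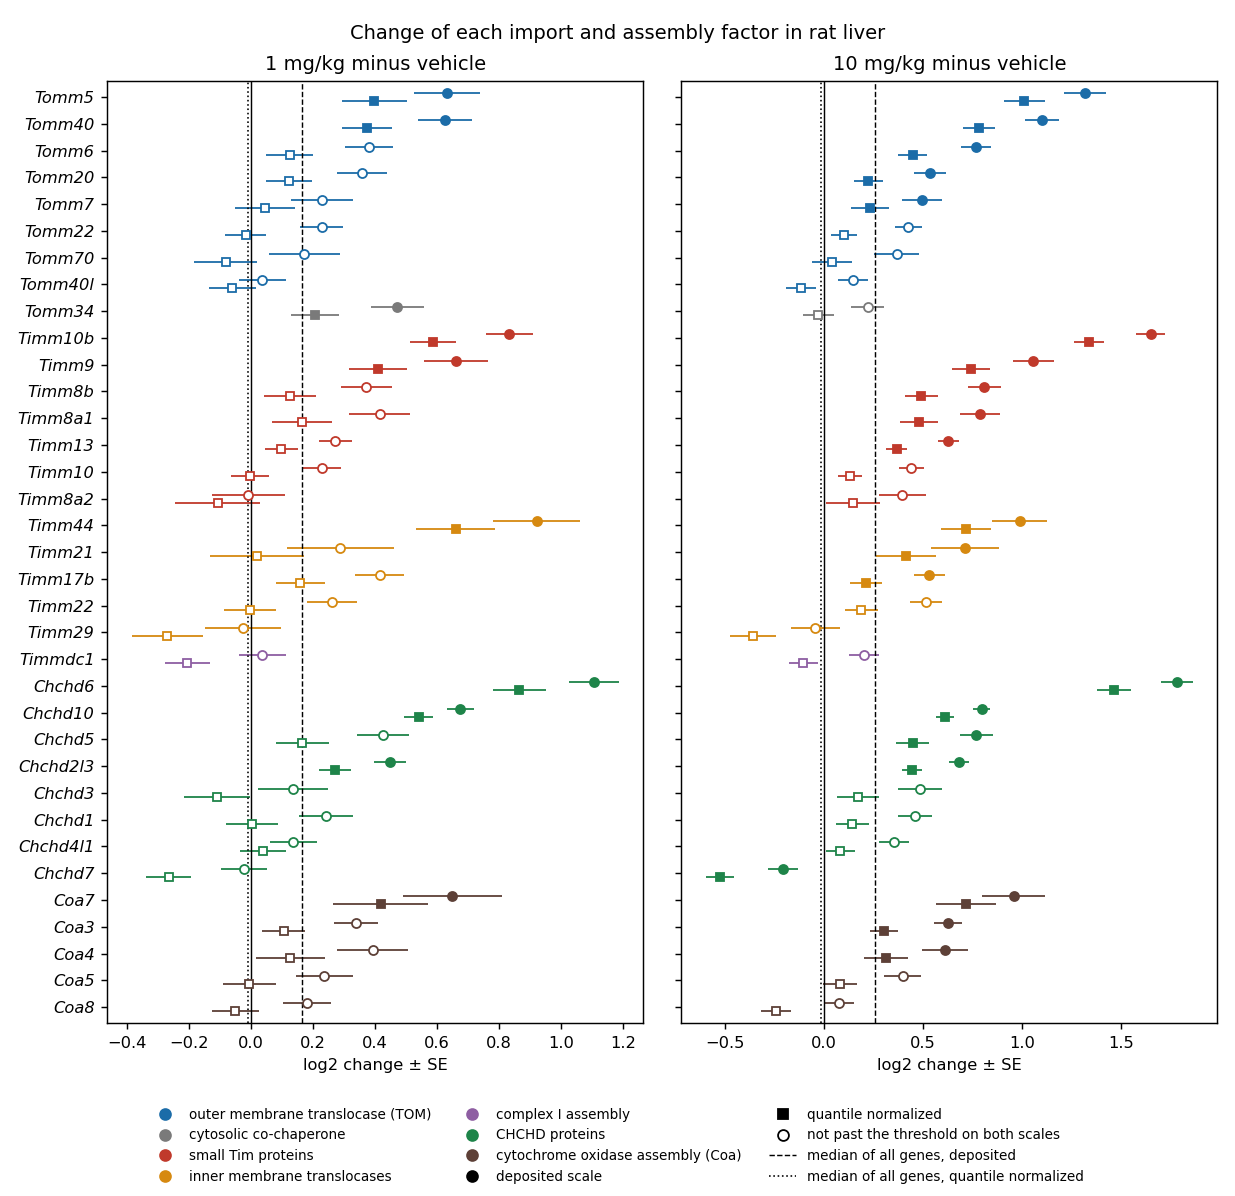
Log2 change of each of the 35 genes against vehicle (x axis, point ± SE) at 1 mg/kg (left) and 10 mg/kg (right), as deposited (circles) and quantile normalized (squares), coloured by role, with the median of all genes as vertical lines. Filled symbols mark genes that passed on both scales, 20 higher and 1 lower at 10 mg/kg, and Chchd6 and Timm10b lie farthest to the right.

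**Figure D2:**
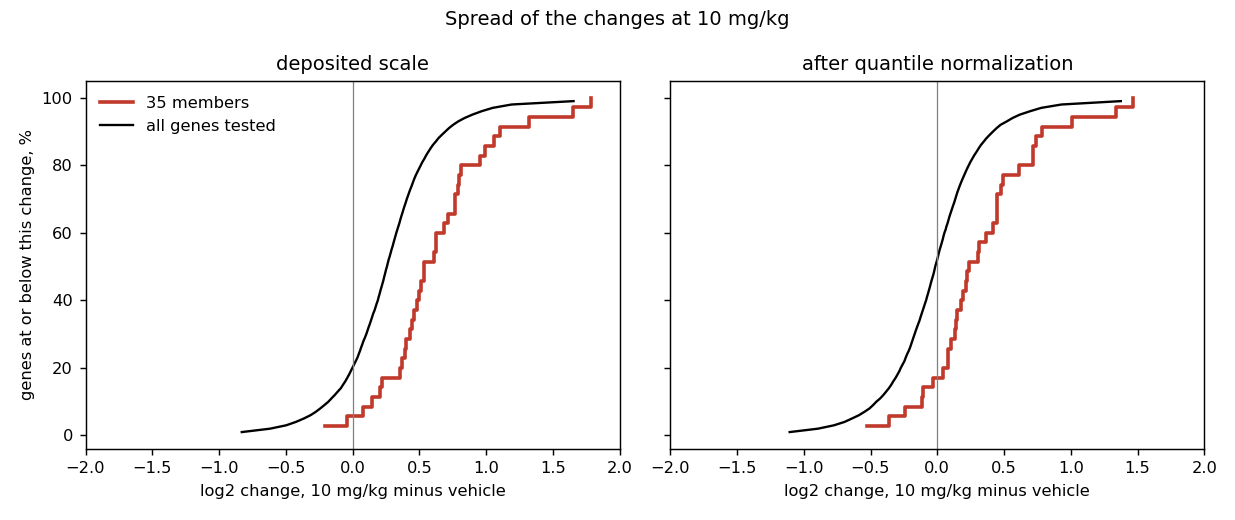
Cumulative share of genes (y axis, %) at or below each log2 change at 10 mg/kg against vehicle (x axis), for the 35 import and assembly genes and for all genes tested, as deposited (left) and quantile normalized (right). On either scale the curve of the 35 lies to the right of the curve of all genes over most of its length, with medians of 0.54 against 0.26 and of 0.23 against -0.02.

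Stretches of RefSeq promoters (GRCr8 build) are shown for genes that rose and whose promoter holds a motif of a factor linked to mitochondrial genes, with Timm10 as a gene that did not pass on both scales. Capitals mark the motif on either strand: CCGGAAG or CTTCCGG of the ETS family, which includes NRF-2, TCAAGGTCA of the ERR receptors in Timm8b and GCGCATGCGC of NRF-1 in Tomm7. Each stretch is written in the direction of the gene.
Timm10b, chr1:169392282-169392341, plus strand: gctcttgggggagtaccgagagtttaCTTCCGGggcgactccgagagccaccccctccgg
Timm8b, chr8:59850572-59850631, plus strand: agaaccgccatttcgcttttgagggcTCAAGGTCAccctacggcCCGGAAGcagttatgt
Chchd5, chr3:136815042-136815101, plus strand: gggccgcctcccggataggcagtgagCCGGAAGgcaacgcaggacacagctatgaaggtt
Coa4, chr1:164294195-164294254, plus strand: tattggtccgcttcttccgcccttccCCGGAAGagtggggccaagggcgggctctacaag
Tomm20, chr19:71832421-71832480, minus strand: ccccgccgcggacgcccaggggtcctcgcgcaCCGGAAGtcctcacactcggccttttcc
Tomm7, chr4:12197443-12197502, plus strand: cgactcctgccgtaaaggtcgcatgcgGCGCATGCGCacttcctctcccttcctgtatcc
Timm10, chr3:90315079-90315138, plus strand: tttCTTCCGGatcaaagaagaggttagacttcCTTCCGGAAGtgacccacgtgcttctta

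RefSeq promoters of 300 bases, from 250 before the start to 50 after it, were found for 31 of the 35 genes. The ETS letters were in promoters of 12 of these 31 genes, against 15.6% of the 11056 tested genes with a promoter and 9.63% of all 27457 genes with one. They were in 5 of the 20 genes that rose and in 7 of the 11 others. The NRF-1 letters were in 1 of 31 (Tomm7, with 1.67% of tested genes), the ERR letters in 1 (Timm8b, 0.226%) and the YY1 letters AAGATGGCG in 1 (Tomm40l, 3.17%). The PPAR response element, searched as AGGNCANAGGNCA, was in none of the 31, with 0.371% of tested genes. Matches of different motifs did not overlap, but an ETS match and its reverse share letters in CTTCCGGAAG. A match is a run of letters and not a shown binding site.

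At the outer membrane gate, Tomm5 and Tomm40 rose at 1 and 10 mg/kg. Tomm40 forms the pore, and Tomm5 is a small subunit bound to it. Tomm5 read 6.88 to 7.57 on the vehicle arrays (median 7.22), 6.77 to 7.59 at 0.1 mg/kg (7.05), 7.52 to 8.39 at 1 mg/kg (7.75) and 8.33 to 8.97 at 10 mg/kg (8.57). All arrays at 10 mg/kg and 9 of 10 at 1 mg/kg lay above every vehicle array. Tomm5 was 2.50-fold higher at 10 mg/kg than with vehicle (log2 change 1.32, SE 0.11, adjusted p = 1.16e-13), and at 1 mg/kg 1.55-fold. Tomm40 read 6.29 to 6.71 on the vehicle arrays (median 6.50), 6.01 to 6.79 at 0.1 mg/kg (6.50), 6.83 to 7.43 at 1 mg/kg (7.10) and 7.35 to 8.08 at 10 mg/kg (7.51). Its vehicle range overlapped with 0.1 mg/kg and with neither higher dose. On the quantile normalized scale, 1 mg/kg (lowest 6.68) overlapped with vehicle as well (highest 6.82). Tomm40 rose 2.14-fold at 10 mg/kg (log2 change 1.10, SE 0.09, adjusted p = 6.61e-14) and 1.54-fold at 1 mg/kg.

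Tomm6, another small subunit around the pore, rose at 10 mg/kg. It read 6.52 to 7.18 on the vehicle arrays (median 6.88), 6.67 to 7.05 at 0.1 mg/kg (6.83), 7.0 to 7.62 at 1 mg/kg (7.22) and 7.45 to 7.82 at 10 mg/kg (7.61). All arrays at 10 mg/kg and 6 of 10 at 1 mg/kg lay above every vehicle array. Quantile normalized, 10 mg/kg (lowest 7.30) overlapped with vehicle (highest 7.35). The rise at 10 mg/kg was 1.70-fold (log2 change 0.77, SE 0.08, adjusted p = 4.68e-11), and 1 mg/kg passed only on the deposited scale (log2 change 0.38). The presequence receptor Tomm20 and the small subunit Tomm7 also rose at 10 mg/kg, with log2 changes of 0.54 and 0.50. After quantile normalization these were 0.22 and 0.23, with adjusted p = 0.0118 and 0.0448. Another probe set of Tomm20 gave 0.34, and averaging the probe sets ended its call. Scaling to the hybridisation controls ended the calls of Tomm20, Tomm7 and Timm21 at 10 mg/kg. The receptors Tomm22 and Tomm70 had log2 changes of 0.43 and 0.37 that passed on the deposited scale but not after quantile normalization, where they were 0.10 and 0.04. Tomm40l, a relative of the pore gene, read 2.18 at 10 mg/kg and 2.04 with vehicle, below the array medians, and passed on neither scale.

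Tomm34, a cytosolic co-chaperone of precursor proteins, had its highest level at 1 mg/kg. It read 4.10 to 4.57 on the vehicle arrays (median 4.32), 3.87 to 4.44 at 0.1 mg/kg (4.34), 4.55 to 5.01 at 1 mg/kg (4.78) and 4.08 to 4.95 at 10 mg/kg (4.63). At 1 mg/kg 9 of 10 arrays lay above every vehicle array, and at 10 mg/kg 6 of 10. It rose 1.39-fold at 1 mg/kg (log2 change 0.47, SE 0.08), close to the threshold after quantile normalization (0.21, adjusted p = 0.0493). It fell by 0.25 on the log2 scale in the step from 1 to 10 mg/kg (adjusted p = 0.0209), and at 10 mg/kg it did not pass on both scales against vehicle. Neither call held when arrays were shifted to the hybridisation controls or when its probe sets were averaged, and the rise at 1 mg/kg did not hold with the replicate number as a block.

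Among the small Tim proteins, Timm10b rose most. Timm9, Timm10 and Timm10b serve the TIM22 carrier route, while Timm8a, Timm8b and Timm13 act as a separate escort. Timm10b read 6.36 to 6.84 on the vehicle arrays (median 6.52), 6.49 to 6.99 at 0.1 mg/kg (6.67), 7.03 to 7.68 at 1 mg/kg (7.44) and 8.05 to 8.43 at 10 mg/kg (8.17). Vehicle and 0.1 mg/kg overlapped, and the ranges at 1 and 10 mg/kg stood clear of them and of each other. With quantile normalization, 1 mg/kg (lowest 6.88) overlapped with vehicle (highest 7.01), and 10 mg/kg (lowest 7.86) stayed clear. Timm10b was 3.13-fold higher at 10 mg/kg than with vehicle (log2 change 1.65, SE 0.08, adjusted p = 2.58e-21) and at 1 mg/kg 1.78-fold. Its other probe set gave log2 changes of 1.15 at 10 mg/kg and 0.63 at 1 mg/kg.

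Timm9, the partner of Timm10 in the carrier escort, read 6.22 to 7.10 on the vehicle arrays (median 6.90), 6.45 to 7.09 at 0.1 mg/kg (6.87), 7.18 to 7.92 at 1 mg/kg (7.43) and 7.63 to 8.03 at 10 mg/kg (7.87). No array at 1 or 10 mg/kg reached down into the vehicle range. When quantile normalized, 1 mg/kg (lowest 7.06) overlapped with vehicle (highest 7.21), and 10 mg/kg (lowest 7.45) did not. Timm9 rose 2.08-fold at 10 mg/kg (log2 change 1.06, SE 0.10, adjusted p = 2.25e-11) and 1.58-fold at 1 mg/kg. Timm10 itself had a log2 change of 0.44 at 10 mg/kg, where its deposited arrays did not overlap with vehicle, but after quantile normalization it was 0.13 with adjusted p = 0.0771.

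Timm8b read 8.12 to 8.54 on the vehicle arrays (median 8.22), 8.02 to 8.56 at 0.1 mg/kg (8.20), 8.29 to 9.07 at 1 mg/kg (8.62) and 8.88 to 9.38 at 10 mg/kg (9.10). Only 10 mg/kg was clear of the vehicle range, and after quantile normalization it overlapped as well (lowest 8.66, highest vehicle array 8.70). Timm8b rose 1.75-fold at 10 mg/kg (log2 change 0.81, SE 0.08, adjusted p = 1.06e-10). Timm8a1, the gene of the escort subunit Timm8a, read 6.97 to 7.61 on the vehicle arrays (median 7.06), 6.77 to 7.27 at 0.1 mg/kg (6.99), 7.21 to 8.05 at 1 mg/kg (7.51) and 7.52 to 8.36 at 10 mg/kg (7.88). There, 9 of 10 arrays lay above every vehicle array, and the highest vehicle array, 7.61, stood apart from the rest of its group. Timm8a1 rose 1.73-fold at 10 mg/kg (log2 change 0.79, SE 0.10, adjusted p = 1.20e-08), whereas its other probe set gave a log2 change of 0.15, and the mean of both did not pass on both scales. Timm13, their partner, rose 1.54-fold at 10 mg/kg (log2 change 0.63). Timm8a2, a copy that read 2.52 at 10 mg/kg and 2.12 with vehicle, below the array medians, did not pass on both scales.

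**Figure D3:**
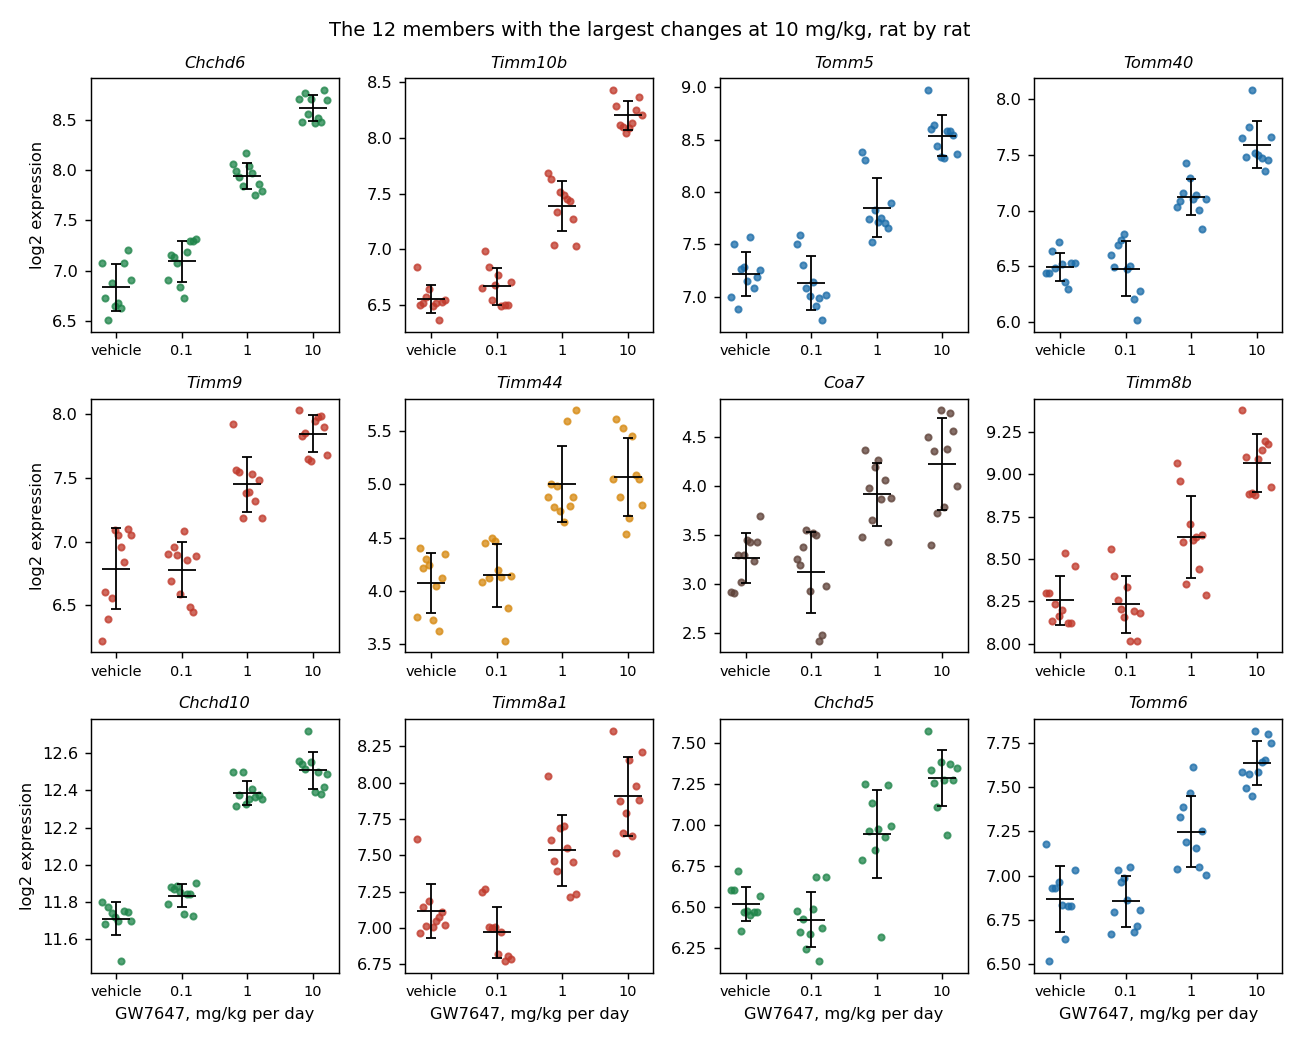
Log2 expression (y axis) of the 12 genes with the largest changes at 10 mg/kg in each rat, by GW7647 dose in mg/kg per day (x axis), with the group mean and SD (bars, n = 10 each). Chchd6 and Timm10b are clear of the other groups at 10 mg/kg, while the 1 and 10 mg/kg groups of Timm44 overlap.

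At the inner membrane, Timm44 rose at both 1 and 10 mg/kg. Timm44 ties the matrix Hsp70 motor to the TIM23 channel. It read 3.62 to 4.40 on the vehicle arrays (median 4.17), 3.53 to 4.50 at 0.1 mg/kg (4.14), 4.65 to 5.69 at 1 mg/kg (4.88) and 4.53 to 5.61 at 10 mg/kg (5.04). The ranges at 1 and 10 mg/kg overlapped with each other but not with vehicle. On the quantile normalized scale, both (lowest 4.506 and 4.392) overlapped with vehicle (highest 4.509). Within the 1 mg/kg group Timm44 read highest on arrays 7 and 10 (5.59 and 5.69), where the actin difference was largest (3.95 and 4.42). At 10 mg/kg the same held for arrays 2, 4 and 7 (5.61, 5.52 and 5.45, with differences of 3.67, 3.97 and 3.56). The part of this difference in its change was not tested. Timm44 rose 1.98-fold at 10 mg/kg (log2 change 0.99, SE 0.14, adjusted p = 1.54e-07) and 1.90-fold at 1 mg/kg, and the step between them was 0.07 with adjusted p = 0.762. Its other probe set, which read 1.94 at 10 mg/kg and 1.77 with vehicle, below the array medians, gave log2 changes of 0.17 at 10 mg/kg and 0.10 at 1 mg/kg. Timm21, a TIM23 subunit that contacts TOM, rose 1.64-fold at 10 mg/kg (log2 change 0.71, SE 0.17). Quantile normalization left 0.42 of that change, with adjusted p = 0.0245. Timm17b, a subunit of the TIM23 channel, rose 1.45-fold (log2 change 0.53).

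Neither Timm22 nor Timm29, inner membrane genes of the TIM22 translocase, passed on both scales, while Timm9 and Timm10b of that route rose. The channel gene Timm22 had a log2 change of 0.51 at 10 mg/kg, but 0.19 after quantile normalization (adjusted p = 0.0629), and another probe set gave -0.23. Timm29, a TIM22 subunit in human cells, read 7.66 at 10 mg/kg and 7.71 with vehicle. Its log2 change was -0.04 and passed as lower only after quantile normalization (-0.36, adjusted p = 0.00994). Timmdc1, a complex I assembly factor that shares the name, had a log2 change of 0.20 that did not pass after quantile normalization (-0.10).

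The largest change of the 35 was that of Chchd6, a MICOS subunit. It read 6.51 to 7.20 on the vehicle arrays (median 6.81), 6.73 to 7.31 at 0.1 mg/kg (7.15), 7.75 to 8.17 at 1 mg/kg (7.95) and 8.47 to 8.80 at 10 mg/kg (8.62). The 1 and 10 mg/kg arrays stood clear of vehicle, of 0.1 mg/kg and of each other, and 3 arrays at 0.1 mg/kg lay above every vehicle array. When quantile normalized, 1 mg/kg (lowest 7.62) overlapped with 0.1 mg/kg (highest 7.66), but not with vehicle. Chchd6 was 3.44-fold higher at 10 mg/kg than with vehicle (log2 change 1.78, SE 0.08, adjusted p = 2.28e-21) and at 1 mg/kg 2.15-fold. Its MICOS partner Chchd3 had a log2 change of 0.48 at 10 mg/kg, but 0.17 after quantile normalization (adjusted p = 0.183).

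Chchd10, an intermembrane space protein linked to cristae upkeep, read 11.48 to 11.80 on the vehicle arrays (median 11.73), 11.72 to 11.90 at 0.1 mg/kg (11.85), 12.31 to 12.50 at 1 mg/kg (12.37) and 12.38 to 12.72 at 10 mg/kg (12.51). Both higher doses were clear of vehicle, and they overlapped with each other. Chchd10 rose 1.74-fold at 10 mg/kg (log2 change 0.80, SE 0.04, adjusted p = 1.48e-18) and 1.60-fold at 1 mg/kg. Chchd2l3, a close relative of the Chchd10 partner Chchd2, rose 1.60-fold at 10 mg/kg and 1.37-fold at 1 mg/kg. RefSeq lists Chchd2 as an older name of it and also as a separate gene, so its probe set may read both.

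Chchd5 read 6.36 to 6.72 on the vehicle arrays (median 6.48), 6.17 to 6.68 at 0.1 mg/kg (6.40), 6.32 to 7.25 at 1 mg/kg (6.97) and 6.94 to 7.58 at 10 mg/kg (7.31). It was clear of vehicle at 10 mg/kg, and at 1 mg/kg in 9 of 10 arrays. Quantile normalized, 10 mg/kg (lowest 6.74) overlapped with vehicle (highest 6.85). The rise at 10 mg/kg was 1.70-fold (log2 change 0.77, SE 0.08, adjusted p = 4.72e-10). A dimmer probe set of Chchd5, at 2.97 with 10 mg/kg and 2.64 with vehicle, gave log2 changes of 0.33 at 10 mg/kg and 0.37 at 1 mg/kg. Chchd7, related to a yeast factor of cytochrome oxidase assembly, was the gene that fell. It read 7.31 to 7.75 on the vehicle arrays (median 7.53), 7.30 to 7.65 at 0.1 mg/kg (7.54), 7.25 to 7.64 at 1 mg/kg (7.54) and 6.84 to 7.60 at 10 mg/kg (7.33). The groups overlapped, and its fall of 0.21 on the log2 scale at 10 mg/kg (SE 0.07, adjusted p = 0.0146) deepened to 0.52 after quantile normalization. A dimmer probe set of Chchd7 gave 0.073, and the call ended when the probe sets were averaged. Chchd1, a protein of the mitochondrial ribosome, had a log2 change of 0.46, and 0.14 after quantile normalization. Chchd4l1, a copy of Chchd4 that RefSeq lists as a noncoding RNA, read 2.12 at 10 mg/kg and 1.76 with vehicle, below the array medians. Neither passed on both scales.

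Of the cytochrome oxidase assembly factors, Coa7, Coa3 and Coa4 rose at 10 mg/kg. Coa7 read 2.90 to 3.69 on the vehicle arrays (median 3.30), 2.42 to 3.55 at 0.1 mg/kg (3.22), 3.43 to 4.37 at 1 mg/kg (3.93) and 3.40 to 4.77 at 10 mg/kg (4.37). At 10 mg/kg 9 of 10 arrays and at 1 mg/kg 7 of 10 lay above every vehicle array. Coa7 rose 1.94-fold at 10 mg/kg (log2 change 0.96, SE 0.16, adjusted p = 3.09e-06) and 1.57-fold at 1 mg/kg, where averaging its probe sets, scaling to the hybridisation controls or a replicate block ended the call. Its other probe set, which read 2.72 at 10 mg/kg and 2.46 with vehicle, gave log2 changes of 0.25 at 10 mg/kg and -0.22 at 1 mg/kg. Coa3, which binds newly made COX1, rose 1.54-fold at 10 mg/kg, and Coa4 rose 1.53-fold. Coa5 had a log2 change of 0.40 that did not pass after quantile normalization (0.08), but its dimmer probe set gave 1.08, and the mean of its probe sets passed. Coa8 had a log2 change of 0.08, and passed as lower only after quantile normalization (-0.24, adjusted p = 0.00781).

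At 1 mg/kg, 10 of the 35 rose and 0 fell, where 11.1% of all genes rose and 3.37% fell. They were Chchd6, Timm44, Timm10b, Chchd10, Timm9, Coa7, Tomm5, Tomm40, Tomm34 and Chchd2l3, whose call ended with scaling to the hybridisation controls. With the deposited scale alone 24 rose and 0 fell, where 38.2% and 3.37% of all genes did, and after quantile normalization alone 10 rose and 2 fell, where 11.1% and 12.1% did. The median log2 change of the 35 was 0.34 at 1 mg/kg, against 0.16 for all genes, and after quantile normalization 0.11, against -0.0089. Among genes with a mean of log2 5 or more it was 0.35 for 30 of the 35, against 0.25 for all 5810 such genes. The poly-A controls split this group, at 5.25 to 5.70 on its arrays 1 to 4, below the 6.34 to 7.39 on its arrays 5 to 10. Against vehicle, Chchd6 was higher by 1.12 on arrays 1 to 4 and by 1.10 on arrays 5 to 10, Timm44 by 0.84 and 0.98, and Tomm5 by 0.77 and 0.54 (log2).

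At 0.1 mg/kg, 0 of the 35 rose or fell by limma, where 0.0819% of all genes rose and 0.0149% fell. At an unadjusted p under 0.05 there were 2 of the 35, Chchd6 (log2 change 0.26) and Chchd10 (0.12), and 587 of the 13438 genes. The log2 changes of the 35 lay between -0.15 and 0.26, with a median of -0.03, the same as the median of all genes. The count was 0 as well after quantile normalization and under every other alternative run for this dose.

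The rises were spread over both upper steps of the dose series. From 0.1 to 1 mg/kg 10 of 35 rose and 0 fell, where 10.5% of all genes rose and 2.95% fell. The largest rises of that step were those of Timm44 (log2 change 0.85), Chchd6 (0.85) and Coa7 (0.80). From 1 to 10 mg/kg 12 of 35 rose and 1 fell, where 8.55% of all genes rose and 5.98% fell. The largest there were those of Timm10b (0.81), Tomm5 (0.69) and Chchd6 (0.68), and the small Tim genes made up 5 of the 12. Timm44 had reached 93.4% and Chchd10 84.9% of their 10 mg/kg change at 1 mg/kg, while Timm10b had reached 50.6% and Tomm5 47.9%. In the step from 1 to 10 mg/kg, 4 of the 35 passed on both scales when arrays 1 to 4 alone stood for 1 mg/kg, against 13 with all 10 arrays. With all arrays scaled to the hybridisation controls, 6 passed. Fewer arrays lower the precision for any gene, and the share of all genes that passed in these settings is not given. Across the doses as a whole, 21 of the 35 passed the F test on both scales, where 34.2% of all genes did.

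**Figure D4:**
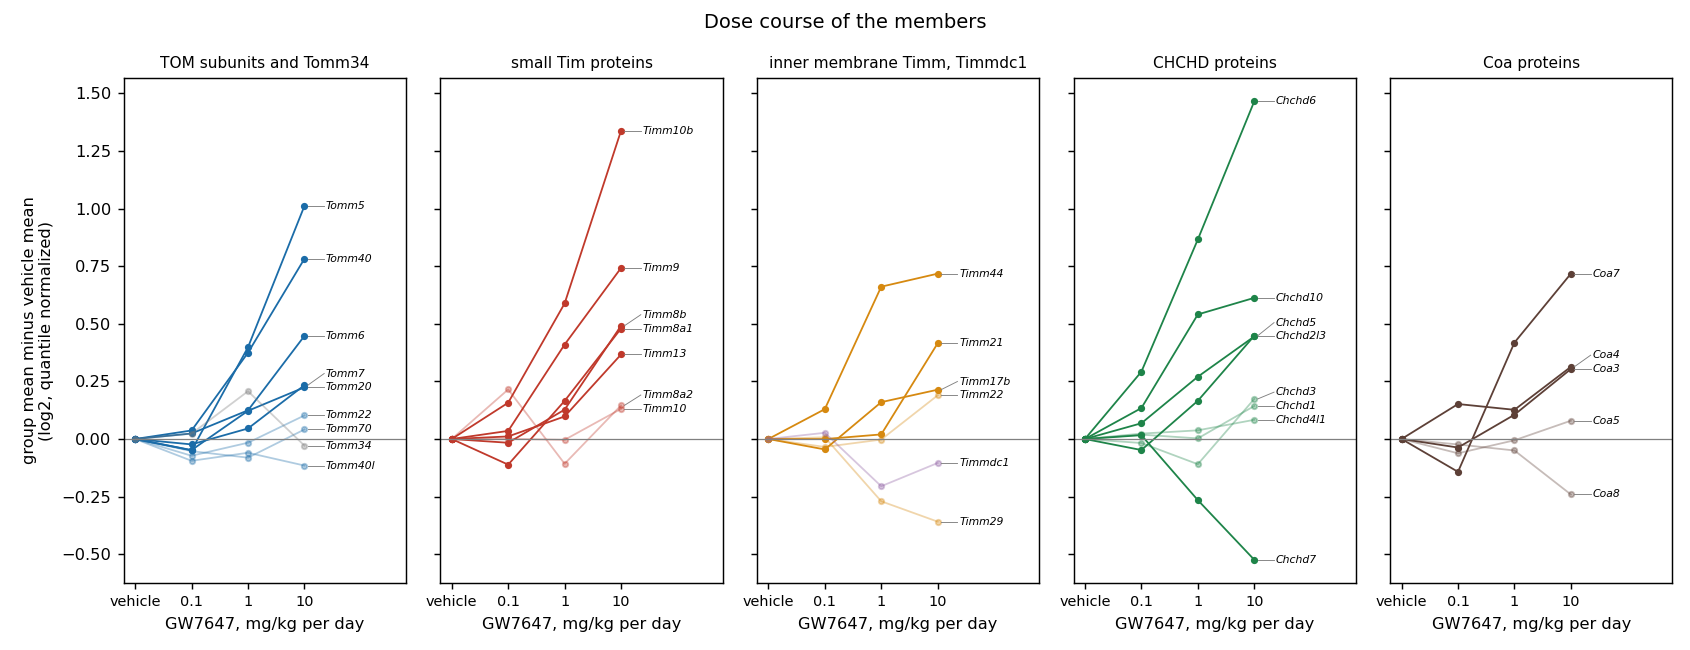
Group mean minus vehicle mean (y axis, log2, after quantile normalization) against GW7647 dose (x axis) for each of the 35 genes, in 5 panels by role, with genes that did not pass on both scales at 10 mg/kg drawn pale. Timm44 and Chchd10 lie at 10 mg/kg close to their 1 mg/kg means, while Timm10b, Tomm5 and Chchd6 lie clearly higher at 10 mg/kg.

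Other genes of import and assembly, taken from 4 lists, rose at 10 mg/kg in all 4. Of 22 genes of the matrix motor, presequence processing and folding, 11 rose and 0 fell, with a median log2 change of 0.53. They included the protease subunit Clpp (1.18), the chaperonins Hspe1 (0.97) and Hspd1 (0.95), and the motor co-chaperone Dnajc15 (0.75). Of 14 measured genes of outer membrane sorting, MICOS and the intermembrane relay, 8 rose and 0 fell, with a median of 0.52. Samm50, which inserts barrel proteins into the outer membrane, rose by 1.39, and the MICOS subunits Apoo and Immt by 0.82 and 0.75, and the porin Vdac1 by 0.66. The MICOS subunits Apool (0.59) and Micos13 (-0.08) did not pass on both scales. Micos13 (-0.34) and Opa1 (-0.53) passed as lower only after quantile normalization.

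Of 14 measured genes of cytochrome oxidase assembly outside the Coa family, 8 rose and 0 fell, with a median of 0.53. Lrpprc, which stabilises mitochondrial messenger RNAs, rose by 1.19 on the log2 scale. Cox14, which acts with Coa3, rose by 0.93, Cox18, which inserts COX2 into the membrane, by 0.89, and Cox15, of haem A synthesis, by 0.86. Of 21 measured genes of complex I, II and III assembly, 10 rose and 0 fell, with a median of 0.55, led by the complex I factors Nubpl (1.01), Ecsit (0.74) and Ndufaf7 (0.72) and the complex II factor Sdhaf4 (0.85). At 1 mg/kg the 4 lists had 6, 4, 4 and 3 genes that rose, in the order given, and at 0.1 mg/kg 0 in each. The same background of 20.4% at 10 mg/kg and 11.1% at 1 mg/kg applies to these counts.

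The tissue label was checked against cell type markers. Of 7 hepatocyte markers 6 were measured, all far above the array medians, and their mean ranged over the arrays from 12.05 to 12.39 at 10 mg/kg and from 12.42 to 12.54 with vehicle. Of these 6, 3 fell at 10 mg/kg, the urea cycle enzyme Ass1 by 1.44 on the log2 scale. All 5 measured macrophage markers fell at 10 mg/kg, with a mean of 6.15 to 7.18, against 7.02 to 7.77 with vehicle. Markers of muscle, heart or brown fat, tissues rich in mitochondria, had a mean of 2.23 to 2.54 at 10 mg/kg and of 1.76 to 2.21 with vehicle, and 2 of these 4, Ckm and Ucp1, rose. Of the 4, 0 read above the array medians with vehicle and 1 did at 10 mg/kg. Of 4 cholangiocyte markers, Epcam (log2 change 1.26) and Sox9 (0.45, below the array medians) rose, with an array mean of the 4 of 3.19 to 3.99 at 10 mg/kg and of 3.04 to 3.51 with vehicle. The erythroid marker Alas2 rose by 0.67, with 3.28 to 4.55 at 10 mg/kg and 2.55 to 3.70 with vehicle. Among 5 stellate cell markers Col1a1 rose by 0.59 and Des fell by 0.32, with array means of 3.67 to 4.18 at 10 mg/kg and 3.76 to 4.17 with vehicle. Of 4 measured endothelial markers 1 fell, Kdr by 0.36, with 6.61 to 6.87 at 10 mg/kg and 6.54 to 6.90 with vehicle, and of 3 measured lymphocyte markers 0 passed, with a median array mean of 2.31 at 10 mg/kg and of 2.17 with vehicle. The part of these shifts, of the poly-A controls and of the actin difference in the changes of the 35 genes was not tested.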

How the data were processed

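Liver RNA of 40 rats was read on 1 array each, and the labels gave groups and doses. The authors deposited log2 values for each probe set. Per the submitters' processing notes the tools were GCRMA and Partek, with versions not given in the sources used here. This method leaves dim probe sets near a floor. No pseudocount or further background correction was applied.

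Of 31139 probe sets, 19069 had 1 gene symbol, 572 several and 11498 none here. Each gene kept its brightest probe set on average over all arrays. The 4 groups were fitted in 1 linear model with limma 3.58.1 in R 4.3.3 (lmFit and eBayes, 36 residual degrees of freedom, two-sided), and checked on simulated data. The members, gene lists, tests and the rule on both scales were chosen with earlier results of these data known. Every member is named; group ranges are given for the 12 with the largest changes at 10 mg/kg past the threshold on both scales and for those that fell, and Tomm34 was added after its values were seen. Each list names its 4 largest changes, and the list with MICOS also names Apool, Micos13 and Opa1. Arrays have no read depth; their number limits the precision. Alternatives covered scaling, probe set choice, priors, filters, array weights, a replicate block, a 1.2-fold test and left-out arrays. Promoters are RefSeq's (GRCr8). Python 3.11.15 and matplotlib 3.10.9 drew the figures.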

Additional observations from a re-analysis of the deposited data

Results flagged for a closer look

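In groups of 10 arrays, 21 of 140 member and group sets held an array far from the rest by Dixon's test, in 18 of the 35 genes, where chance gives about 1 in 20. Vehicle array 1 was high for Timm13 (10.04), Timm17b (6.94) and Timm8a1 (7.61) and low for Tomm70 (6.16). It also had the highest poly-A level (6.50) and the lowest actin difference (2.20) of the vehicle arrays. Vehicle array 2 was low for Coa3 (8.15) and Coa8 (7.71), and vehicle array 7 for Chchd10 (11.48). At 0.1 mg/kg, array 8 was low for Coa5 (7.16), Timm29 (7.03) and Tomm70 (6.04), and array 7 was high for Tomm40l (2.29). The upper quartile of all probe sets was lowest of the 40 arrays on this array 8 (4.27), followed by array 9 of that group (4.47). On the vehicle arrays it was 4.81 on average. At 1 mg/kg, array 10 was low for Chchd2l3 (11.32) and Timm10 (8.51), array 7 for Chchd5 (6.32) and array 1 for Tomm40l (1.72), while array 1 was high for Timm9 (7.92) and array 5 for Chchd4l1 (2.33). At 10 mg/kg, array 4 was high for Chchd10 (12.72) and low for Chchd3 (7.35) and Timm21 (5.06), and array 1 was high for Tomm5 (8.97). Without the 3 arrays that stood apart for 3 or more genes (10 mg/kg array 4, 0.1 mg/kg array 8 and vehicle array 1), 0 of the 35 passed at the lowest dose, 12 at the middle and 24 at the highest dose. The shares of all genes without these arrays are not given.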

How the results depend on the processing

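All counts are of the 35 genes passing, in either direction. For most alternatives the share of all genes that passed is not given, so the counts show only how the calls of the 35 vary. At 10 mg/kg, 21 passed; a test against 1.2-fold left 10, the deposited scale alone gave 32, and the other alternatives gave 18 to 25. At 1 mg/kg, 10 passed; 3 did against 1.2-fold, 18 with arrays shifted to 1 median, and 24 on the deposited scale alone. With arrays 1 to 4 as that group, 9 passed on both scales and 21 on the deposited scale alone. In the step from 1 to 10 mg/kg, 13 passed; 6 did with scaling to the hybridisation controls, and 21 on the deposited scale alone. With arrays 1 to 4 for 1 mg/kg, 4 passed on both scales, 4 after quantile normalization alone and 7 on the deposited scale alone. In the step from 0.1 to 1 mg/kg, 10 passed, and 27 on the deposited scale alone; with arrays 1 to 4, 11 did on both scales and 23 on the deposited scale alone. The causes were not tested, but dropping the second scale can only add calls. The deposited scale alone, arrays 1 to 4 on both scales and the left-out arrays were chosen after seeing the data.

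Changes that reversed were Chchd7 at 10 mg/kg (0.073) and Timm22 in the step from 1 to 10 mg/kg (-0.39) with the probe set of largest variance, and, after quantile normalization, Coa8 at 10 mg/kg (-0.24), Timmdc1 at 1 mg/kg (-0.21) and Timmdc1 from 0.1 to 1 mg/kg (-0.23). Same-numbered arrays of different groups had deviations from their group means that correlated at -0.27 to 0.37. Between 1 and 10 mg/kg the median was 0.16, and 5 of 10 pairs were over 0.1. Differently numbered arrays were not compared, so whether replicate numbers pair rats was not tested. The replicate block gave 21 calls at 10 mg/kg, 8 at 1 mg/kg, 0 at 0.1 mg/kg, 14 and 10 in the upper and lower step and 21 at any dose.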

Other observations

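Neighbours were searched for the 31 genes with a RefSeq promoter (GRCr8), and not for the other 4. Of the 31, 6 have a measured neighbour that starts within 1000 bases and runs the other way. The neighbour of Timm10b is Arfip2, which encodes arfaptin of the Golgi, and at 10 mg/kg its log2 change was -0.18 (SE 0.10, adjusted p = 0.118), and -0.46 after quantile normalization (adjusted p = 0.000389), against 1.65 for Timm10b. The neighbour of Timm8b is Sdhd, an anchor subunit of complex II, with a log2 change of 0.15 (SE 0.08, adjusted p = 0.114), and -0.11 after quantile normalization, against 0.81 for Timm8b. Kiaa0586, beside Timm9, had a log2 change of 0.30, and 0.06 after quantile normalization, and Pqbp1, beside Timm17b, had 0.32 and 0.01. Fbxo15, beside Timm21, had 0.51 and 0.25. None of these 5 passed on both scales, while the 5 genes beside them rose. Bag5, beside Coa8, fell by 0.29, and by 0.55 after quantile normalization, while Coa8 did not pass on both scales. The difference between the genes of a pair was not tested.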
